A study of Homo sapiens with 20 samples.

Results

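UDP-glucuronosyltransferases (UGTs) were followed through the differentiation of HepaRG cells on microarrays. The probes were those whose RefSeq accession belongs to 1 of 9 genes, UGT1A1, UGT1A6, UGT1A8, UGT2B4, UGT2B7, UGT2B10, UGT2B11, UGT2B15 and UGT2B17. This gave 8 probes, out of 42405 probes on the array, for 7 of the 9 genes and of the 19062 genes named on the array. UGT1A6 had 2 probes and UGT1A8, UGT2B4, UGT2B7, UGT2B10, UGT2B11 and UGT2B15 had 1 each. No probe accession matched UGT1A1 or UGT2B17, which were not analysed here.

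UGTs are enzymes of the endoplasmic reticulum that join glucuronic acid, taken from UDP-glucuronic acid, to drugs, bile acids, steroids and bilirubin, so that the product can leave in bile or urine. In the liver they carry out much of the conjugation that follows oxidation by cytochromes P450. The UGT1A enzymes come from 1 locus, in which each isoform has its own promoter and first exon joined to exons that all isoforms share, whereas each UGT2B enzyme has a gene of its own in a cluster.

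HepaRG is a line from a human hepatoma whose progenitors give rise to hepatocyte-like and biliary-like cells, and a comparison here is therefore between cultures of 1 line. All cultures were grown in William's E medium with serum, insulin and hydrocortisone. Cells were collected 4 days after seeding (D4, progenitors), at day 15 (D15), at day 30 without dimethyl sulfoxide (D30 − DMSO), at day 30 after exposure to 2% DMSO from day 15 (D30 + DMSO), and at day 34, 4 days after DMSO had been withdrawn from such exposed cultures (D34 ± DMSO). Each condition had 4 arrays from independent experiments. There were no cells kept in DMSO to day 34, so at D34 withdrawal and the 4 later days cannot be told apart.

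The values given are scaled signals, which are processed intensities after each array was brought to a common 75th percentile of 546.2. Levels on the log2 scale are relative to that percentile. A probe was called different between 2 conditions where limma, fitted over all 20 arrays, gave more than a 2-fold difference and a p under 0.005 after Benjamini-Hochberg adjustment over the 26541 probes tested. Probes bind with different strength, so the signals of different probes do not rank their genes. Ratios between probes are read only as changes from one condition to another, and a sum over a marker list is weighted towards its brightest probes. Between 61.1% and 74.2% of the spots of an array were well above background, and arrays of one condition correlated with r between 0.955 and 0.992 over the probes tested. All 8 UGT probes were well above background on all 20 arrays, and none had a saturated or outlying spot. D4 replicate 3 was the lowest of the D4 arrays for 8 of the 8 probes and D4 replicate 4 the highest for 7. At D15 replicate 4 was the highest for 7 of the 8. Because these are bulk samples, fewer cells of a type and less RNA per cell cannot be told apart.

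The labelled cell type was checked against markers. All 6 hepatocyte markers (ALB, TF, TTR, APOA1, SERPINA1, CYP3A4) were well above background on the 20 arrays. Of the 5 biliary and progenitor markers, KRT7, KRT19, SOX9 and SPP1 were also well above background on all 20, with KRT19 at scaled signals between 39100 and 145000, and EPCAM was on none. Of markers of other lineages, the endothelial PECAM1 was well above background on 10 arrays and the leukocyte PTPRC on 20, at scaled signals between 32.1 and 104 for the brightest of its 4 probes.

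The region just before the transcript start is shown for the genes with a probe and an available start, since shared and diverging stretches can be read directly. The RefSeq promoters used held a start for 7 of the 9 genes (GRCh38.p14), with 2 starts for UGT1A6. They held none for UGT2B4 or UGT2B17, so the UGT2B4 sequence was not read. The 100 bases before each start are printed 5′ to 3′ on the strand of the gene. Capitals mark the letters GTTAA and TGATTNAT, each on either strand, so that GTTAA also appears as TTAAC.
UGT2B10, chr4:68815894-68815993, plus strand: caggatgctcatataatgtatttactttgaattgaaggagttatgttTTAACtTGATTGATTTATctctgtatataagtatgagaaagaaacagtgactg
UGT2B11, chr4:69214749-69214848, minus strand: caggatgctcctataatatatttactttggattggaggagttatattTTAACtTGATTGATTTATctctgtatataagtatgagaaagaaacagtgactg
UGT2B15, chr4:68670653-68670752, minus strand: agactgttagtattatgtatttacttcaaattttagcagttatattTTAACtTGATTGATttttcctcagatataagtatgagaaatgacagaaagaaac
UGT2B7, chr4:69096374-69096473, plus strand: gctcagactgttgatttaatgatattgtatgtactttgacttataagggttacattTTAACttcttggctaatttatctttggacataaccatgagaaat
UGT1A6, first start, chr2:233691602-233691701, plus strand: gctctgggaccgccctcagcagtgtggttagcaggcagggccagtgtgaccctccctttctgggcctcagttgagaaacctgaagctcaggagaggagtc
UGT1A6, second start, chr2:233692790-233692889, plus strand: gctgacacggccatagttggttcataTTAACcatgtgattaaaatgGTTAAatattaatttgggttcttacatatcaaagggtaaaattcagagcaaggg
UGT1A8, chr2:233617533-233617632, plus strand: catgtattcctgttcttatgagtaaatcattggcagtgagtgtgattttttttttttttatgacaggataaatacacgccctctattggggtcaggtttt

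The 4 UGT2B sequences share TTAAC beginning between 44 and 54 bases before the start. In UGT2B10, UGT2B11 and UGT2B15 it is followed after 1 base by TGATTGAT, and in UGT2B7 it is followed by other letters. In the 250 bases before the start, GTTAA was found in 6 of the 8 starts of the listed genes and in 19.8% of all 35116 RefSeq promoters of that length. TGATTNAT was found in 4 of 8 and in 2.48%. The joint pattern, TTAAC, any 1 base and TGATTNAT, written down after these sequences had been read, was found in 6 of the 35116 promoters, a share of 0.0171%, and 3 of the 6 were UGT2B10, UGT2B11 and UGT2B15. GCGTG, the core of the element bound by the aryl hydrocarbon receptor, was found before UGT1A8 and before the first start of UGT1A6, and in 32.2% of all promoters. These 3 UGT2B genes are copies of one another and not independent cases: over 250 bases UGT2B10 and UGT2B11 were 90.2% identical, and UGT2B15 was 70.6% and 71.4% identical to them. UGT2B7 was between 61.3% and 65.1% identical to the other UGT2B starts. UGT1A8 was 50.0% and 50.7% identical to the 2 UGT1A6 starts, which lies inside the 46.4% to 53.5% found between UGT1A and UGT2B starts. A match of letters is a description of the sequence and was not tested as a binding site.

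The comparison of D4 with D15 asks what the progenitors gained on their way to commitment, before any DMSO. All 5 UGT2B probes rose, by between 12.1-fold and 60.3-fold, and none of the 3 UGT1A probes was called. The 5 of 8 called stand against 9.19% of all probes tested that were called in this comparison, and 5.55% that were called higher. The arrays of D4 and D15 did not overlap for any UGT2B probe and overlapped for all 3 UGT1A probes, and 24% of all probes tested did not overlap.

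UGT2B4, which conjugates bile acids, read 79.8, 140, 27.0 and 180 at D4 and 5230, 5090, 4240 and 6380 at D15 (A_23_P386912, NM_021139). The conditions lie far apart, and the D4 arrays differ among themselves more than the D15 arrays do. UGT2B4 rose 60.3-fold, a log2 change of 5.91 with an SE of 0.38 (adjusted p = 3.02e-09, n = 4 arrays in each condition, limma).

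UGT2B15, which conjugates androgens and oxazepam, read 85.3, 189, 47.7 and 329 at D4 and 3680, 4270, 3180 and 5870 at D15 (A_23_P58407, NM_001076). It rose 32.8-fold, a log2 change of 5.04 with an SE of 0.39 (adjusted p = 1.98e-08). Its lowest D4 array was again replicate 3 and its highest replicate 4.

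UGT2B11, the close relative of UGT2B10, read 135, 247, 72.5 and 301 at D4 and 2560, 3340, 2540 and 4730 at D15 (A_23_P212968, NM_001073), a rise of 4.28 (SE 0.33, adjusted p = 2.05e-08). UGT2B10, which attaches glucuronic acid to the nitrogen of tertiary amines such as nicotine, read 794, 1310, 581 and 1320 at D4 and 13700, 14100, 12400 and 17900 at D15 (A_23_P7342, NM_001075). Its rise of 3.93 (SE 0.21, adjusted p = 2.98e-10) had the smallest error of the 5. No D4 array of either probe reached the lowest D15 array.

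UGT2B7, which conjugates morphine and many other drugs, read 338, 520, 258 and 452 at D4 and 4210, 5500, 3840 and 4890 at D15 (A_23_P136671, NM_001074). It rose by 3.59 (SE 0.24, adjusted p = 4.83e-09), the smallest of the 5 rises, without overlap between the conditions. On the 3 slides that held arrays of both conditions, the differences of the UGT2B probes ranged from 3.26 to 4.42 for UGT2B7 and from 4.85 to 7.56 for UGT2B4, all in the same direction.

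UGT1A6 conjugates small flat phenols and serotonin. Its brighter probe read 9280, 8130, 6120 and 13200 at D4 and 9560, 11500, 10900 and 18800 at D15 (A_23_P60599, NM_001072). The conditions overlapped, and D15 was 0.47 above D4 on the log2 scale (95% interval 0.02 to 0.92, adjusted p = 0.136). The differences for the second UGT1A6 probe (A_24_P222872, NM_001072) and for UGT1A8, an isoform known mainly from the gut (A_33_P3302075, NM_019076), were 0.16 (-0.50 to 0.82, adjusted p = 0.809) and 0.46 (-0.08 to 1.00, adjusted p = 0.232).

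The change in the ratio between families within an array, a measure chosen after these values had been seen, was computed for each of the 5 UGT2B probes over each of the 3 UGT1A probes. All 15 ratios rose from D4 to D15, by between 3.12 and 5.76 on the log2 scale, with no overlap between the 4 arrays of each condition. For every UGT2B probe the gap between the D4 and D15 arrays was wider than the whole span of any UGT1A probe over these arrays. The ratios therefore could not overlap, and no test is given. The ratios share probes and arrays and are not independent. Beside the UGT2B rise, 6 of 6 hepatocyte markers rose, with a median of 4.20 on the log2 scale, and their summed signal went from between 79400 and 165000 at D4 to between 682000 and 1010000 at D15. The proliferation markers MKI67, CDK1 and TOP2A all fell, from sums of 1800 to 2400 to sums of 205 to 396. Of the 4 tested biliary and progenitor markers 1 rose, with sums of the list going from between 93000 and 159000 to between 75300 and 100000, and of the 3 mesenchymal markers 1 fell. The part of cell composition in the UGT2B values was not tested.

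**Figure D1:**
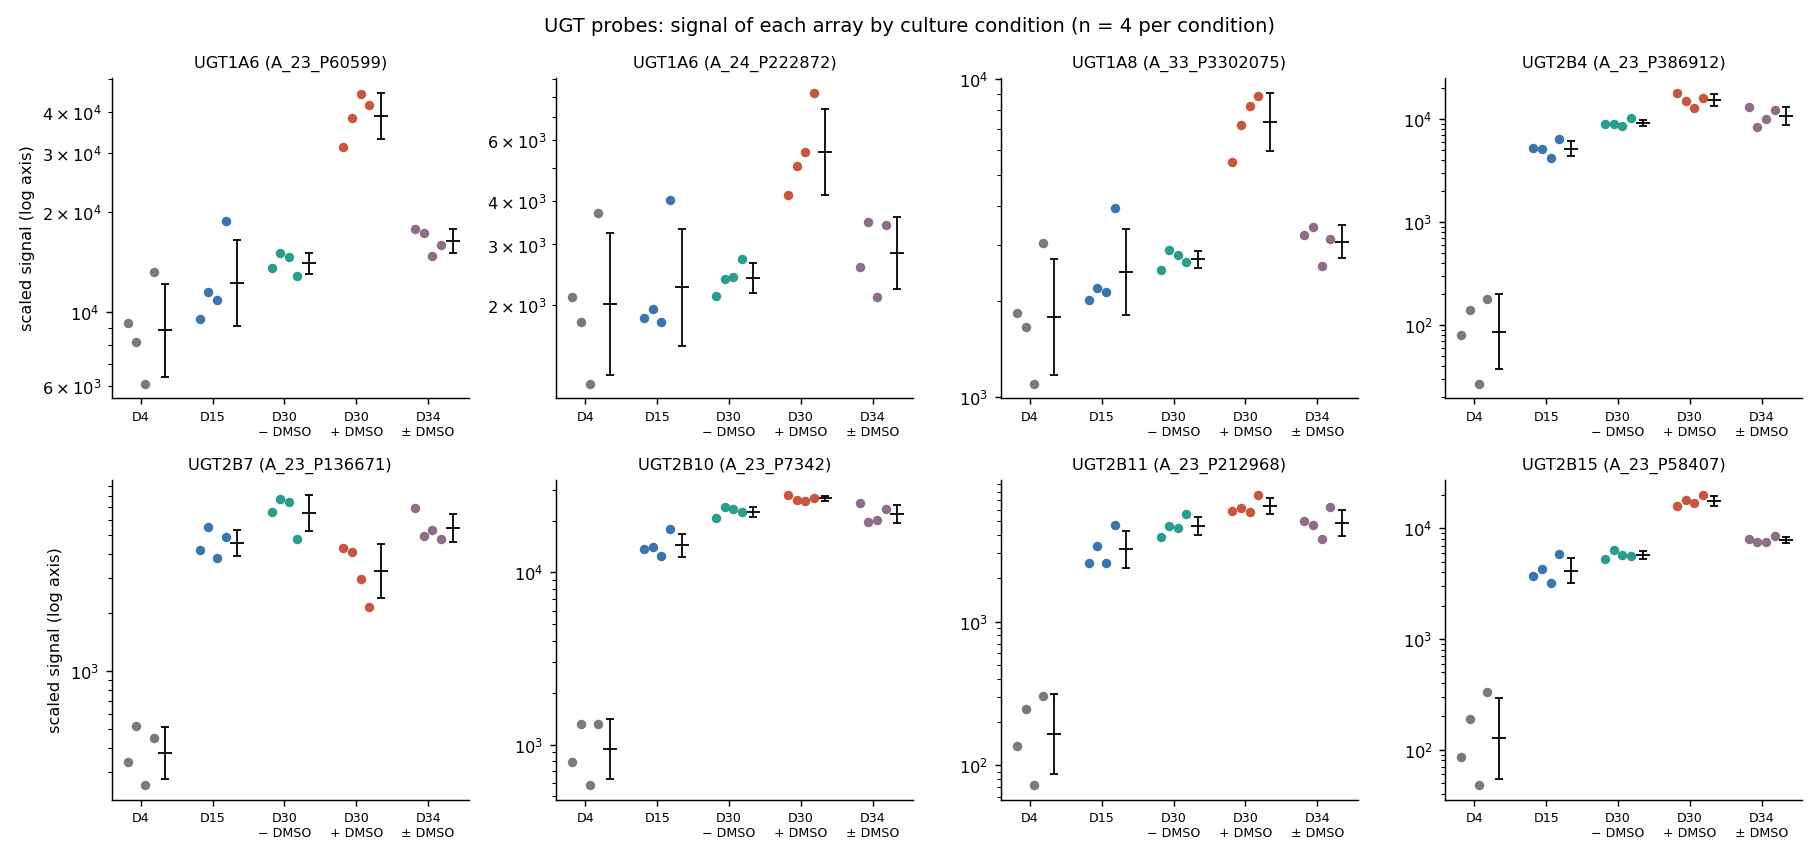
Scaled signal (log axis) of each of the 8 UGT probes on the 20 arrays, by culture condition; points are arrays, and the bar beside them is the mean ± SD on the log2 scale (n = 4). The 5 UGT2B probes stand far lower at D4 than in any later condition, the 3 UGT1A probes stand highest at D30 + DMSO, and the UGT2B7 signal is below its D30 − DMSO values after DMSO exposure. Each panel has its own axis.

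From D15 to D30 without DMSO, no UGT probe was called, and 1 of the 26541 probes tested was (0.00377%). Unadjusted limma p-values were below 0.05 for 3 probes, UGT2B4 with a log2 difference of 0.82, UGT2B7 with 0.51 and UGT2B10 with 0.64. UGT2B10 read 20600, 23900, 23300 and 22300 at D30 − DMSO, and UGT2B4 read 8950, 8950, 8600 and 10200. For both, all D30 − DMSO arrays lay above all D15 arrays, as for 2.26% of all probes in either direction. The other 6 probes overlapped. All 8 differences were above 0, from 0.09 to 0.82 with a median of 0.50, beside a median of -0.02 over all probes.

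The effect of DMSO was read at matched age, as D30 + DMSO against D30 − DMSO. The brighter UGT1A6 probe and the UGT1A8 probe rose, by 2.77-fold and 2.71-fold. These were the only 2 of the 8 probes called, against 5.77% of all probes called and 1.66% called higher. The 2 correlated at r = 0.991 over the 20 arrays, and which isoforms of the locus supplied their signals was not tested. UGT2B15 was 3.05-fold higher without passing the threshold on p, and UGT2B7 was the only probe that was lower. The arrays of the 2 conditions did not overlap for any of the 8 probes, which was the case for 25.2% of all probes.

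The brighter UGT1A6 probe read 13600, 15100, 14700 and 12900 without DMSO and 31400, 38200, 45300 and 42000 with it. The lowest exposed array was above 2 times the highest unexposed one. The log2 change was 1.47 with an SE of 0.22 (adjusted p = 8.21e-05, n = 4 and 4). UGT1A8 read 2510, 2900, 2790 and 2650 without DMSO and 5490, 7190, 8240 and 8890 with it, a rise of 1.44 (SE 0.26, adjusted p = 0.000541). On the 2 slides that held both conditions the differences were 1.35 and 1.76 for UGT1A6 and 1.32 and 1.69 for UGT1A8.

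The second UGT1A6 probe read 2130, 2380, 2420 and 2720 without DMSO and 4160, 5040, 5560 and 8220 with it. It was 1.21 higher (SE 0.31, adjusted p = 0.0101), outside the threshold. It passed when D4 replicate 4 (adjusted p = 0.00377) or D15 replicate 4 (adjusted p = 0.00461) was left out of the fit. Both arrays were the highest of their condition for this probe, and the error of the fit is pooled over all conditions. It also passed with slide as a block (1.19, adjusted p = 0.00284), with the replicate block (adjusted p = 0.000444) and in a fit of only the 8 arrays compared (adjusted p = 0.00487). Arrays that shared a slide but not a condition had deviations from the condition means correlating at a median r of 0.366, beside -0.16 for arrays that shared neither.

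UGT2B15 read 5290, 6420, 5810 and 5650 without DMSO and 15900, 17900, 16900 and 20200 with it. The 2 sets are tight and well separated, the log2 difference was 1.61 with an SE of 0.39 (adjusted p = 0.00602), and it was 1.67 and 1.71 on the 2 slides that held both conditions. The error in this fit is pooled over all conditions and takes in the D4 arrays of UGT2B15, which had an SD of 1.23 beside 0.12 and 0.15 in the 2 conditions compared. Without D4 replicate 3 the adjusted p was 0.000583, without D4 replicate 4 it was 0.000588, and in a fit of only the 8 arrays compared it was 0.000143.

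UGT2B7 read 6630, 7700, 7420 and 4770 without DMSO and 4300, 4100, 2990 and 2150 with it. Every exposed array was below every unexposed one, with the lowest unexposed array close to the highest exposed array. The log2 difference was -1.0, or 2-fold (95% interval -1.51 to -0.49, adjusted p = 0.00673), outside the threshold. It was -1.15 with an adjusted p of 0.00411 when D30 − DMSO replicate 4, the low unexposed array, was left out, and -1.06 with an adjusted p of 0.00293 after quantile normalization. It was -0.79 with an adjusted p of 0.0751 without the 7 arrays of slide 4, and -0.80 with an adjusted p of 0.0284 without D30 + DMSO replicate 4, the lowest exposed array. On the 2 slides with both conditions it was -0.91 and -0.66.

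The other UGT2B probes had smaller differences. UGT2B4 was 0.75 higher with DMSO (-0.06 to 1.55, adjusted p = 0.212), at 18000, 15100, 12800 and 16100. UGT2B11 was 0.46 higher (-0.23 to 1.15, adjusted p = 0.413), at 5920, 6200, 5760 and 7640 beside 3890, 4640, 4510 and 5570. UGT2B10 was 0.26 higher (-0.17 to 0.69, adjusted p = 0.471), at 28300, 26200, 26000 and 27200.

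The distance between UGT2B7 and the other probes is described by the ratio of each to UGT2B7 within an array. The mean log2 ratio was higher with DMSO by 2.61 for UGT2B15, 2.47 and 2.21 for the UGT1A6 probes, 2.43 for UGT1A8, 1.75 for UGT2B4, 1.46 for UGT2B11 and 1.26 for UGT2B10. UGT2B7 was taken as the denominator because it alone was lower, and since the conditions did not overlap for any single probe the ratios could not overlap either, so that no test is given.

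**Figure D2:**
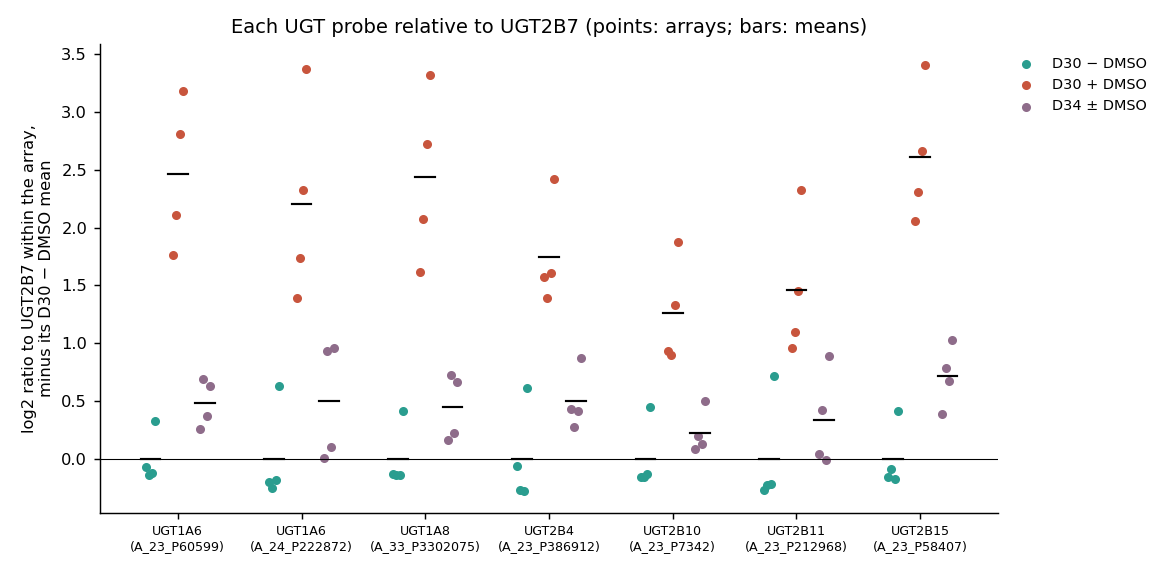
Log2 ratio of each of the other 7 UGT probes to UGT2B7 within an array, relative to its mean at D30 − DMSO; points are arrays and black bars are means (n = 4 per condition). The D30 + DMSO arrays lie above the D30 − DMSO and D34 ± DMSO arrays for every probe, with mean differences from D30 − DMSO between 1.26 and 2.61 at D30 + DMSO.

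At 4 days after withdrawal, the brighter UGT1A6 probe and the UGT1A8 probe had fallen from their D30 + DMSO level. These closely correlated probes were the 2 of 8 called, against 6.92% of all probes called and 2.03% called lower. Arrays did not overlap for 6 of the 8 probes, all but UGT2B4 and UGT2B11, and for 24% of all probes. The brighter UGT1A6 probe read 17800, 17300, 14800 and 15900 at D34 ± DMSO, below every exposed array, and fell 2.36-fold (log2 difference -1.24, SE 0.22, adjusted p = 0.000337). UGT1A8 read 3230, 3420, 2590 and 3150 and fell 2.38-fold (log2 difference -1.25, SE 0.26, adjusted p = 0.00151). The UGT1A8 call was lost without D30 + DMSO replicate 3 (adjusted p = 0.00658), D30 + DMSO replicate 4 (0.00637) or D34 ± DMSO replicate 3 (0.00612), and after quantile normalization (0.00793), at differences between -1.19 and -1.16. It was also lost without the 7 arrays of slide 4 (-1.04, adjusted p = 0.00858). On the 2 slides that held both conditions the differences were -1.45 and -1.09 for UGT1A6 and -1.44 and -1.12 for UGT1A8.

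The second UGT1A6 probe read 2580, 3490, 2110 and 3410 after withdrawal, 0.97 below the exposed cultures (difference -0.97, adjusted p = 0.0323) and without overlap. UGT2B15 read 7980, 7580, 7510 and 8600, with a difference of -1.16 (SE 0.39, adjusted p = 0.0384). Its 4 withdrawn arrays lay between the unexposed and the exposed arrays and overlapped neither. In a fit of only the 8 arrays compared this difference was called (adjusted p = 0.000855).

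UGT2B7 read 6920, 4970, 5330 and 4770 after withdrawal, all above the exposed arrays. The difference was 0.74 (0.23 to 1.25, adjusted p = 0.0366), outside the threshold, and 0.44 (adjusted p = 0.322) without the 7 arrays of slide 4. UGT2B4, UGT2B10 and UGT2B11 had differences of -0.51, -0.30 and -0.38 (adjusted p between 0.375 and 0.494). The mean log2 ratios of the other 7 probes to UGT2B7 differed by -1.99 for UGT1A8 to -1.03 for UGT2B10, given as a description. The addition and the removal share the 4 D30 + DMSO arrays, so that a mirrored sign is not a second, separate observation. At removal 3 of 3 proliferation markers rose, from sums of 145 to 294 at D30 + DMSO to sums of 2440 to 3540, while 1 of 6 hepatocyte markers was called lower. The median difference of the 6 was -0.69, with sums going from between 1030000 and 1730000 to between 824000 and 1060000. Of the biliary and progenitor markers, SPP1 rose 4.66-fold (adjusted p = 1.86e-06) and SOX9 fell 4.26-fold (adjusted p = 5.12e-06). At addition, 1 of 6 hepatocyte markers was called higher. The median difference of the 6 was 0.79, with sums going from between 875000 and 928000 at D30 − DMSO to between 1030000 and 1730000. None of the proliferation or mesenchymal markers was called. Of the 4 tested biliary and progenitor markers SOX9 rose 2.48-fold (adjusted p = 0.000765) and SPP1 fell 3.43-fold (adjusted p = 3.16e-05). The part of cell composition in the UGT values was not tested.

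Withdrawn cultures were set against cultures that had never met DMSO, D34 ± DMSO against D30 − DMSO. No UGT probe was called and none had an unadjusted p below 0.05, against 1.48% of all probes called. The 8 differences ran from -0.26 for UGT2B7 to 0.45 for UGT2B15, with adjusted p between 0.729 and 0.994. The intervals bound what could have been missed: -0.23 to 0.68 for the brighter UGT1A6 probe, -0.35 to 0.73 for UGT1A8, -0.77 to 0.25 for UGT2B7 and -0.36 to 1.26 for UGT2B15. UGT2B15 was the only probe whose arrays did not overlap, with its lowest withdrawn array at 7510 and its highest never-exposed array at 6420, as for 11.8% of all probes. Its pooled error again takes in the D4 arrays (SD 1.23, beside 0.09 and 0.12 in the conditions compared). Over the 13 alternatives that did not leave out a single array, its difference was 0.40 to 0.47. The adjusted p there ran from 0.0392 to 0.827, and the difference was called in none.

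**Figure D3:**
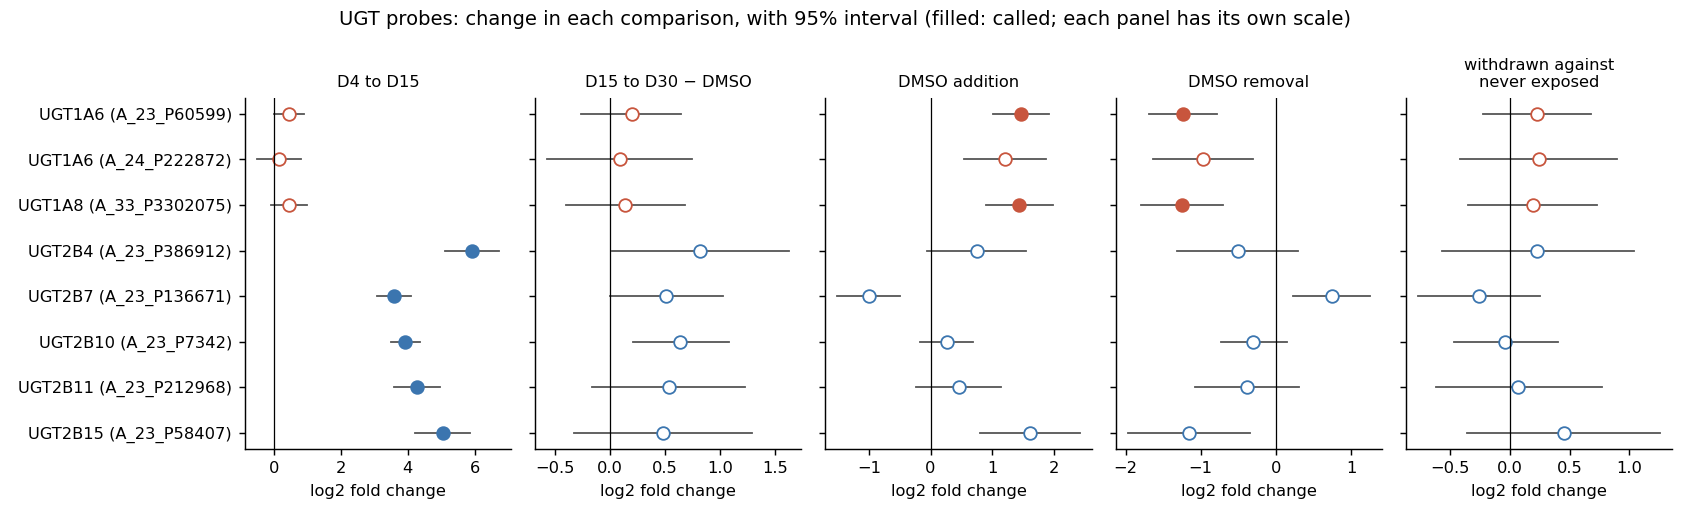
Log2 fold change (point) with its 95% interval (line) of the 8 UGT probes in the 5 comparisons, from limma over 20 arrays; red marks UGT1A, blue UGT2B, and filled points are called. The 5 UGT2B probes are called from D4 to D15, and the brighter UGT1A6 probe and the UGT1A8 probe at DMSO addition and removal. UGT2B7 has the opposite sign to the others at addition (-1.0) and at removal (0.74). Each panel has its own scale.

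Over the 5 conditions, the 5 UGT2B probes passed the F-test, which asked for more than 3-fold and a p under 0.001 after Bonferroni adjustment, as did 4.93% of all probes. The range of the condition means was 179-fold for UGT2B4, 140-fold for UGT2B15, 38.6-fold for UGT2B11, 28.5-fold for UGT2B10 and 17.2-fold for UGT2B7. The brighter UGT1A6 probe spanned 4.39-fold (Bonferroni-adjusted p = 0.00524), UGT1A8 4.1-fold (0.138) and the second UGT1A6 probe 2.75-fold (1), so that none of these was called.

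The order of the means was D30 + DMSO, D34 ± DMSO, D30 − DMSO, D15 and D4, from high to low, for 6 of the 8 probes. For UGT2B10 D34 ± DMSO and D30 − DMSO were exchanged, at a difference of 0.04. Neighbours in this order were called different only between D30 + DMSO and D34 ± DMSO for UGT1A6 (brighter probe) and UGT1A8, and between D15 and D4 for UGT2B4, UGT2B10, UGT2B11 and UGT2B15. UGT2B7 had the order D30 − DMSO, D34 ± DMSO, D15, D30 + DMSO and D4, with a call only at its last step, where D30 + DMSO was 3.11 above D4 (adjusted p = 8.28e-09). The full protocol, D30 + DMSO against D4, was called higher for all 8 probes, from 1.46 for the second UGT1A6 probe to 7.49 for UGT2B4, in a comparison that called 18.2% of all probes and 8.86% as higher.

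The 3 UGT1A probes followed each other closely. Over the 20 arrays the brighter UGT1A6 probe correlated with UGT1A8 at r = 0.991 and with the second UGT1A6 probe at r = 0.917, and the other pair at 0.956. With the condition means taken out, the same values were 0.973, 0.872 and 0.948. The arrays share the preparation and the scaling of each sample, and the values are a description. The 2 UGT1A6 probes, which carry the same accession, had a lower r with each other than either had with the UGT1A8 probe. No probe accession matched the other UGT1A isoforms, UGT1A3, UGT1A4, UGT1A5, UGT1A7, UGT1A9 and UGT1A10. The position of each probe on its transcript was not used here, and which isoforms of the locus supplied these signals was not tested.

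**Figure D4:**
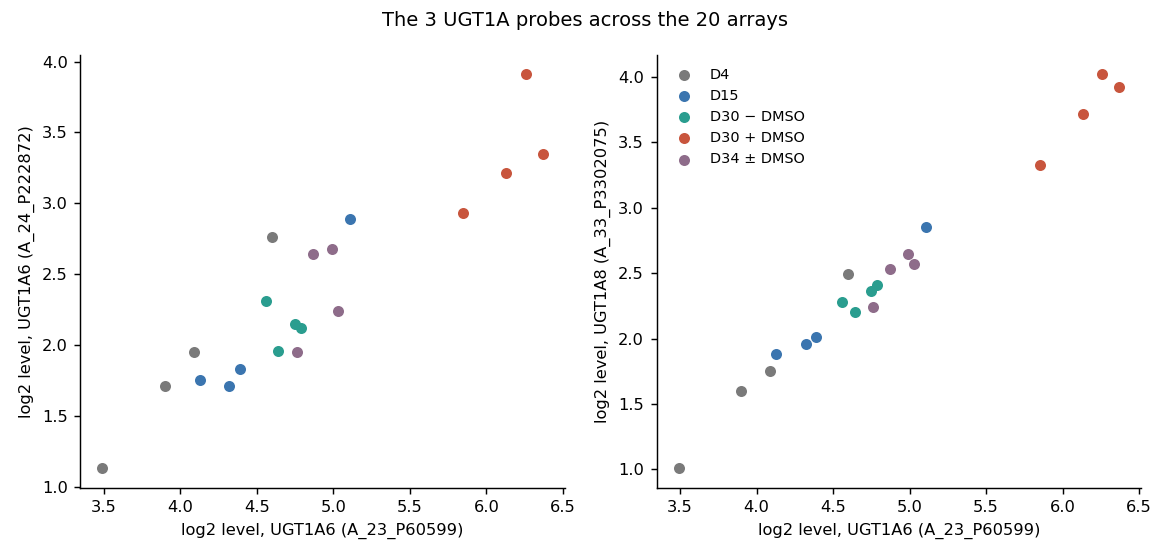
Log2 levels of the second UGT1A6 probe (left) and of the UGT1A8 probe (right) against the brighter UGT1A6 probe on the 20 arrays, coloured by condition. The UGT1A8 points lie close to one line (r = 0.991) and the second UGT1A6 probe scatters more (r = 0.917), and the D30 + DMSO arrays are at the upper right in both panels.

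Among the UGT2B probes, UGT2B4, UGT2B10, UGT2B11 and UGT2B15 correlated with each other at r between 0.982 and 0.997 over the 20 arrays, and at 0.898 to 0.933 with the condition means taken out. UGT2B7 correlated with these 4 at 0.879 to 0.944, and at 0.393 to 0.629 with the means taken out. Whether a UGT2B probe also reads transcripts of its close relatives was not tested. Among 14226 other named genes, the pattern nearest to UGT2B4 and to UGT2B10 was that of ADH1A, an alcohol dehydrogenase (r = 0.993 and 0.996). For UGT2B15 it was AMBP, a plasma protein made by hepatocytes (0.994), followed by the sulfotransferase SULT2A1 (0.992), and for UGT2B11 the retinol dehydrogenase RDH12 (0.990). For UGT2B7 it was the complement factor H-related gene CFHR3 (0.988), followed by ANXA10 and CALML4 (0.987 each).

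The rest of the pathway was read from a list of 35 genes, of which 28 had a probe and 23 were tested. The list also holds regulators and all other UGT genes, UGT3A1 and UGT8 among them, whatever sugar they transfer. Each gene was counted by its brightest probe only. From D4 to D15 there were 8 called higher and 1 lower, with a median of 0.39 beside 0.03 over all probes. In that comparison 9.19% of all probes were called. DMSO addition gave 2 of 23 called, both higher, beside 5.77% of all probes called in either direction and 1.66% called higher. Removal gave 1, lower, beside 6.92% in either direction and 2.03% called lower. Withdrawn against never-exposed cultures gave 1 higher beside 1.48% in either direction, and D15 to D30 without DMSO none beside 0.00377%. At addition and removal the counts in either direction are near the share over all probes, and they are too small to be read by direction.

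The enzymes that make UDP-glucuronic acid, PGM1, UGP2 and UGDH, were called in none of the 5 comparisons. With DMSO, UGDH was 0.41 higher (adjusted p = 0.0377) and UGP2 0.46 lower (difference -0.46, adjusted p = 0.0164). SLC35B1 and SLC35D1, which carry nucleotide sugars into the endoplasmic reticulum, and GUSB, the lysosomal enzyme that splits glucuronides, were not called either. SLC35D1 was 0.67 higher with DMSO without overlap (adjusted p = 0.021), and GUSB differed by -0.08 to 0.25 in the comparisons of D4 with D15, addition and removal.

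Transporters of glucuronides gave mixed results. SLCO1B1, a sinusoidal uptake carrier, rose from scaled signals of 10.2 to 25.9 at D4 to 300 to 440 at D15, a log2 change of 4.36 (adjusted p = 2.98e-10). It was called again at DMSO addition, at 1.14 (adjusted p = 0.00153), and this call was lost without D30 − DMSO replicate 4 (adjusted p = 0.00704), D30 + DMSO replicate 1 (0.00627) or D30 + DMSO replicate 2 (0.00656). SLCO1B3, its close relative, was well above background at D4 and on no D15 array. By its measured signals it was 5.06-fold lower at D15 (log2 difference -2.34, interval -3.35 to -1.33, adjusted p = 0.0013). This call was lost without D15 replicate 1 (adjusted p = 0.00592) and after quantile normalization (0.00603). It was also lost after normexp background correction, at a difference of -0.42 (adjusted p = 0.0153). The size of the SLCO1B3 fall thus depended on the handling of background. Of the exporters, ABCC2 at the bile canaliculus was called higher in withdrawn than in never-exposed cultures, by 1.23 (adjusted p = 0.00247). That call was lost in 6 of the 20 fits that left out 1 array (adjusted p up to 0.012), those without any one of the 4 D30 − DMSO arrays or without D34 ± DMSO replicate 1 or 2. ABCG2 and the brighter of the 2 ABCC3 probes were called in none. The other ABCC3 probe was called lower at DMSO addition (difference -1.54, adjusted p = 2e-07). It was called higher at removal (1.30, adjusted p = 8.07e-07).

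The regulators that rose from D4 to D15 included the xenobiotic receptors NR1I2 (PXR, 3.37) and NR1I3 (CAR, 3.04). They also included the bile acid receptor NR1H4 (FXR, 3.42), HNF4A (2.48, or 5.59-fold) and PPARA (1.02). For HNF4A no D4 array was well above background. Its call was lost after normexp background correction, at a difference of 0.62 (adjusted p = 0.000833). The PPARA call was lost without D4 replicate 1, 2 or 3 or D15 replicate 1, 2 or 4 (adjusted p 0.00874 to 0.0125). At DMSO addition NR1I3 was the only regulator called, and PPARA (0.94, adjusted p = 0.00824) was called there too with slide as a block (1.09, adjusted p = 0.0019). NR1I2 was 1.04 higher with DMSO, or 2.06-fold, in non-overlapping arrays (adjusted p = 0.00861), outside the threshold on p. NR1I3 stood at 903 to 1790 with DMSO beside 127 to 367 without, a rise of 2.43 (adjusted p = 0.000276). This call was lost under the methods' t-test (adjusted p = 0.0116). NR1I3 fell by 2.04 after withdrawal (difference -2.04, adjusted p = 0.0011). That call was lost without D30 + DMSO replicate 3 (0.00549), with only the arrays compared (0.00923) and under the methods' t-test (0.0347). The second NR1I3 probe was called at addition (2.22, adjusted p = 0.00315) and not at removal (difference -2.02, adjusted p = 0.00542). AHR, the aryl hydrocarbon receptor, was 0.80 higher with DMSO in non-overlapping arrays (adjusted p = 0.000354), which is under 2-fold.

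Of the other UGT genes, 3 of 6 with a probe were tested. UGT2A3, the gene that lies between UGT2B10 and UGT2B7 in the chromosome 4 cluster by RefSeq order, rose 8.59-fold from D4 to D15 (adjusted p = 3.42e-07), from signals of 17.8 to 53.7 to signals of 220 to 300. With DMSO it read 115 to 166 beside 188 to 334 without, a difference of -0.95 (adjusted p = 0.0345) in non-overlapping arrays, outside the threshold. Of its neighbours on the chromosome, UGT2B7 was lower with DMSO (-1.0) and UGT2B10 was 0.26 higher. UGT3A1 and UGT8 were not called in any of the 5 comparisons, and UGT2A1, UGT2A2 and UGT3A2 were well above background on at most 2 arrays.

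**Figure D5:**
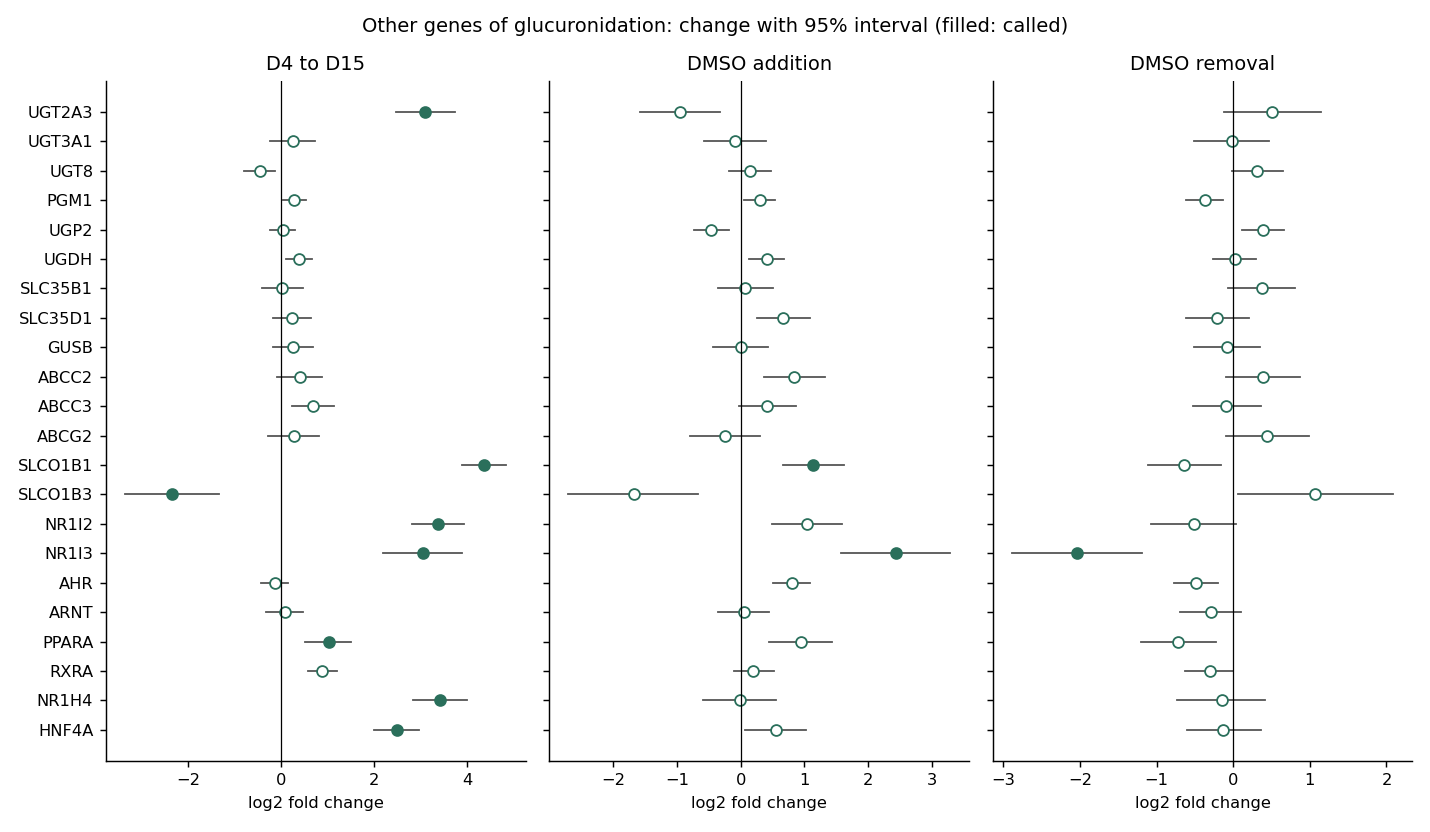
Log2 fold change (point) with its 95% interval (line) of tested genes of the pathway list, which holds other UGT genes and regulators. The panels are D4 to D15 (left), DMSO addition (middle) and DMSO removal (right), and filled points are called. Each gene is shown by its brightest probe. NR1I3 is the only gene called in all 3 panels, and the genes of cofactor synthesis (PGM1, UGP2, UGDH) are called in none.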

How the data were processed

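RNA of 20 HepaRG cultures was measured on Agilent SurePrint G3 8x60K 1-colour arrays. The authors deposited Feature Extraction output (version 10.7.3.1 per the labels) for each array: its processed signal is a background-subtracted intensity, with flags of 0 or 1, and between 7.66% and 16.3% of spots are at or below 0. A second file the authors deposited holds log2 values, scaled to the 75th percentile with 1 baseline per probe and array shifts up to 0.113, used as an alternative.

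Outlier spots were left out, spots of a probe averaged, arrays scaled to their 75th percentile, and values set to at least 1 before log2. A probe was tested if well above background on all 4 arrays of a condition (26541 probes). Symbols came from RefSeq accessions (24826 probes named). Tests used limma 3.58.1 in R 4.3.3, and thresholds follow the study's methods. The code was checked on simulated arrays with independent noise, 1 spread per probe over all conditions and no slide effect. That check cannot show how unequal spread or slides affect the calls. Where no array of a condition passed the background flag, its measured signals were still used. The arrays lay on 4 slides scanned in 2 sessions. The number of arrays limits the precision. The UGT genes, the pathway and marker lists and the tests were chosen with earlier results of these data known. Named were all UGT genes, listed genes, and the 3 nearest patterns of each UGT called by the F-test. The alternatives were other scalings, backgrounds, filters, blocks and tests, and leaving out each array. Counts over the pathway list include 1 gene whose values are not reported here.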

Additional observations from a re-analysis of the deposited data

Results flagged for a closer look

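In 2 of the 40 sets of 4 arrays (8 probes in 5 conditions), 1 array stood far from the other 3 by Dixon's test at the 95% level; chance gives about 1 in 20. Both were D15 replicate 4 on a UGT1A probe. The second UGT1A6 probe (A_24_P222872) was at 2.89 on the log2 scale there, beside 1.71 to 1.83 on the other D15 arrays. UGT1A8 was at 2.85, beside 1.88 to 2.01. The 2 probes correlate closely over all arrays and are not independent. D15 replicate 4 was on slide 4, as was D15 replicate 3, which was not set apart.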

How the results depend on the processing

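Across the alternatives no UGT probe reversed its sign among called values: of 1315 recomputed probe values, 1291 kept their direction and their side of the threshold, 18 passed where they had not, 6 no longer passed and 0 reversed. The number of UGT probes called stayed at 5 from D4 to D15, and at 0 from D15 to D30 − DMSO and in withdrawn against never-exposed cultures. At DMSO addition it went from 2 to 4 in fits of only the arrays compared, at an adjusted p below 0.05 and with the replicate block. It went to 3 after quantile normalization, after normexp background correction, with slide as a block and under the methods' t-test. It was 2 to 4 when 1 array was left out (4 without D4 replicate 4). At removal it went from 2 to 1 after quantile normalization and without the 7 arrays of slide 4, an alternative chosen after seeing the data. It went to 3, with UGT2B15 added, in a fit of only the arrays compared and at an adjusted p below 0.05. It was 1 to 2 when 1 array was left out. The number of UGT probes passing the F-test, 5 in the main fit, was 5 to 6 when 1 array was left out and 4 to 6 under the other alternatives. For pathway genes, D4 to D15 went from 9 to 5 with only probes well above background on all 20 arrays. Addition went from 2 to 1 under quantile normalization, that stricter filter and without slide 4, to 0 under the methods' t-test, to 4 at an adjusted p below 0.05, and was 1 to 2 leaving out arrays. Removal went from 1 to 0 under the stricter filter, with only the arrays compared and under the methods' t-test, and was 0 to 1 leaving out arrays. Withdrawn against never-exposed went from 1 to 0 under quantile normalization, no filter, the methods' t-test, a fit of only the arrays compared and without slide 4, and was 0 to 1 leaving out arrays. The cause was not tested. Over all probes, normexp background correction called 737 at addition beside 1532, with 298 and 440 of them higher. Deviations of arrays with the same replicate number correlated at a median r of 0.251 (-0.301 to 0.793), beside -0.154 for other numbers, and 16 of 20 arrays matched their own number best, a hint of shared experiments. The labels do not say that numbers mark them, and not every pair correlated above 0.1, so the numbers were not used as pairs. The replicate block changed no other count of UGT probes called between 2 conditions.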
